A study of Mus musculus with 18 samples.

Results

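The response of mouse kidney cortex to aristolochic acid I, a plant toxin that injures the proximal tubule, was compared between mice with and without Klf15 in that tubule segment, in the groups sampled after a remodeling period. The quantity described is the genotype by toxin interaction. It is the toxin response in Klf15PTKO mice (PTKO) minus the toxin response in Klf15fl/fl mice (fl/fl), each response being the mean log2(RPKM + 1) after toxin minus the mean in vehicle. RPKM is a read count per kilobase of transcript and per unit of library depth. The comparison takes 12 of the 18 libraries of the series, 3 in each of 4 groups. These are fl/fl with vehicle (fl/fl DMSO), PTKO with vehicle (PTKO DMSO), and both genotypes after 2 weeks of toxin and 2 weeks of remodeling (fl/fl AA 4wk and PTKO AA 4wk). All mice were C57Bl/6, and RNA came from whole kidney cortex perfused with PBS. The remaining 6 libraries, fl/fl and PTKO after 2 weeks of toxin without remodeling (AA 2wk), entered the fit to estimate the spread.

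The fl/fl mice carry floxed Klf15 alleles, and the series title describes PTKO as loss of Klf15 from the proximal tubule. Neither the Cre line nor the deleted exons were found in the labels. No group with Cre and intact Klf15 is named, so effects of the genotype and of a Cre transgene cannot be told apart. Ages, sexes and the week of the vehicle libraries are not given in the labels either. Whether replicates came from different animals is unstated, so the p-values reflect sample-to-sample spread, which may be technical.

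Klf15 is a zinc finger transcription factor of the Krüppel-like family, which binds GC-rich and CACCC-type DNA elements. In liver, muscle and kidney it is known for the control of amino acid and fatty acid breakdown and as a target of glucocorticoids, and its level follows the circadian clock. Proximal tubule cells depend on mitochondrial respiration, fed largely by fatty acids, for the transport they carry out. Aristolochic acid enters these cells through organic anion transporters and forms DNA adducts. An interaction above 0 means a larger rise or a smaller fall in PTKO, and one below 0 the reverse. It also equals the genotype difference after toxin minus the genotype difference in vehicle. Levels or genotype differences are given beside the interaction for many genes, and the interaction alone for others. An interaction alone does not tell in which treatment the genotypes differed.

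Depth, recovered from the steps between the deposited values, ran from 11.0 to 21.9 M reads over the 12 libraries, and 11323 to 13254 genes reached 1 RPKM in a library. Across genes, replicates of a group correlated at 0.979 to 0.995. In a principal component analysis of the 12 libraries the first component held 90.3% of the variance and separated vehicle from toxin. The vehicle libraries overlapped on it, at -77.8 to -52.6 in fl/fl and -64.6 to -58.3 in PTKO. The toxin libraries did not, at 50.8 to 60.9 in fl/fl and 68.0 to 79.2 in PTKO. Summed over 27 proximal tubule markers, the vehicle libraries held 55400 to 69600 RPKM in fl/fl and 62700 to 67900 in PTKO. Summed levels of adrenal markers stayed at or below 1.78 RPKM and of erythroid markers at or below 1.92 RPKM. Adipocyte markers summed to at most 1.88 RPKM except in PTKO AA 4wk number 2, which held 47.2 RPKM.

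Klf15 itself, the targeted gene, was measured in every library. In vehicle it stood at 53, 61.3 and 65.5 RPKM in fl/fl and at 28.5, 31.9 and 32.6 RPKM in PTKO. After toxin and remodeling it stood at 11.6, 14.6 and 18.8 RPKM in fl/fl and at 9.11, 8.81 and 9.53 RPKM in PTKO. In these groups every PTKO library lay below every fl/fl library of the same treatment. At 2 weeks of toxin the genotypes overlapped, at 22.9, 18.6 and 41.3 RPKM in fl/fl and 12.5, 17.5 and 25.6 RPKM in PTKO. The genotype difference was -0.93 in vehicle and -0.63 after toxin on the log2 scale, neither of them called by limma (adjusted p = 0.595 and 0.812). Klf15 fell in both genotypes (-1.95 ± 0.26 in fl/fl and -1.65 ± 0.26 in PTKO, log2 change ± SE). Its interaction was 0.29 ± 0.36, with a 95% interval of -0.49 to 1.07. Reads from other cells of the cortex count toward these values, and the table gives 1 value per gene (chromosome 6, 90462576 to 90475238, plus strand, mm10).

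Both genotypes responded to the toxin with a broad and closely similar change. Of 13624 genes tested, limma called 9028 in fl/fl (7074 higher and 1954 lower) and 9839 in PTKO (7488 higher and 2351 lower) at an adjusted p of 0.05. Those are 66.3% of the genes tested in fl/fl (51.9% higher and 14.3% lower) and 72.2% in PTKO (55% higher and 17.3% lower). Across genes, the responses of the 2 genotypes, which share no library, correlated at Pearson r = 0.965 and Spearman rho = 0.941, a description over genes that are not independent. The responses were somewhat wider in PTKO, with an SD over genes of 1.07 against 0.96. The median gene moved by 0.35 in fl/fl and 0.40 in PTKO, and 78.4% and 76.1% of the calls were higher. Median-of-ratios scaling took these medians to -0.01 and 0.00 and quantile normalization to -0.08 and -0.07, with 49.3% and 49.3%, and 43.8% and 44.5%, of the calls higher. A response near 0.35 to 0.40 is therefore one of the bulk of genes. The median interaction, at 0.02, stayed between -0.02 and 0.05 over 31 alternative settings.

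Against these broad changes, 1 gene was called for the interaction, Hprt, or 0.00734% of the genes tested. Without adjustment, 635 genes had a p under 0.05, 4.66% of those tested, 253 higher and 382 lower. That count varied with the libraries and weights used. It was 1712 in a fit of the 12 libraries alone, 1586 without both AA 2wk libraries numbered 3, which had low quality weights (0.21 in fl/fl and 0.11 in PTKO), 999 without the PTKO one of these alone, and 1070 without fl/fl DMSO number 3. Over all settings it ran from 361 (without fl/fl AA 4wk number 3) to 2969 (quality weights). It was 383 without PTKO AA 4wk number 2 and 393 without PTKO DMSO number 1. After Hprt the smallest adjusted p was 0.366. Of the 31 other settings, 29 also called Hprt alone, median-of-ratios scaling called 3 genes, and sample quality weights estimated gene by gene called 161. Those weights were 6.02 for fl/fl DMSO number 1 and 0.38 and 0.58 for the other fl/fl vehicle libraries. The precision allowed differences of moderate size to be bounded. The interaction had a median SE of 0.21, and its 95% interval lay within -1 to 1 in 10965 genes (80.5%) and within -0.5 to 0.5 in 4528 genes (33.2%).

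**Figure D1:**
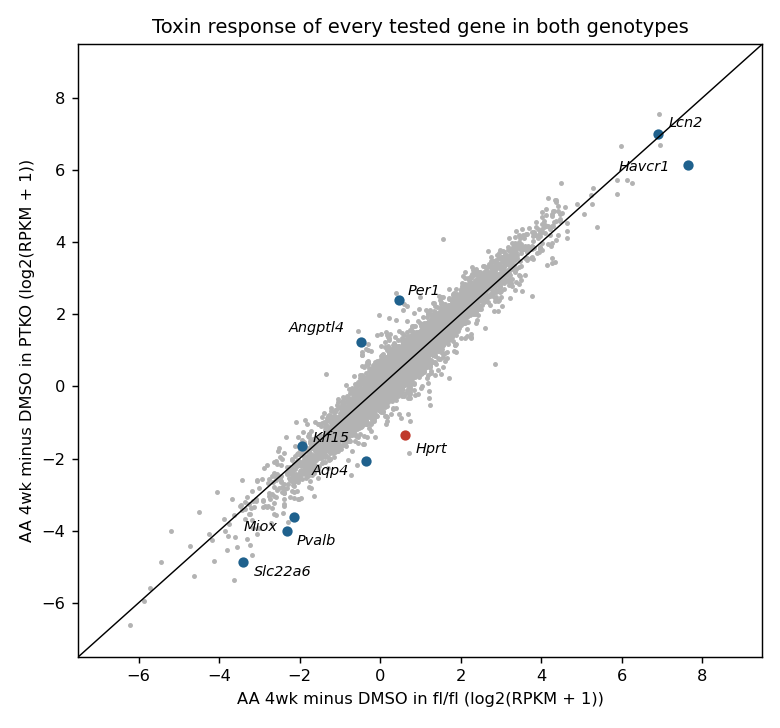
Log2 response to toxin and remodeling in PTKO (vertical axis) against fl/fl (horizontal axis) for the 13624 genes tested, with the line of equal response and 10 named genes. The points follow the line (r = 0.965), and Hprt (red), at 0.61 in fl/fl and -1.34 in PTKO, is the gene whose difference was called.

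Hprt encodes hypoxanthine-guanine phosphoribosyltransferase, the enzyme that salvages hypoxanthine and guanine for purine nucleotides and is often used as a reference gene. In vehicle its level was 53.5, 48.4 and 61.6 RPKM in fl/fl and 20.9, 15.9 and 15.1 RPKM in PTKO. After toxin and remodeling it was 85.4, 76.9 and 88.5 RPKM in fl/fl and 7.09, 4.84 and 6.82 RPKM in PTKO. The 4 groups did not overlap, and the toxin moved the genotypes apart. Hprt rose in fl/fl from 54.5 ± 6.67 to 83.6 ± 5.98 RPKM (SD, n = 3 each), a log2 change of 0.61 ± 0.14 (adjusted p = 0.00135). In PTKO it fell from 17.3 ± 3.12 to 6.25 ± 1.23 RPKM, a change of -1.34 ± 0.14 (adjusted p = 1.6e-06). The interaction was -1.95 ± 0.20, with a 95% interval of -2.37 to -1.53 (limma, adjusted p = 0.000756). The genotype difference, PTKO minus fl/fl, was -1.61 in vehicle and -3.56 after toxin on the log2 scale, both called by limma (adjusted p = 9.52e-05 and 1.1e-09). The interaction was called in all 31 other settings, with values from -2.41 to -1.80. The rise in fl/fl alone depended on scaling: with median-of-ratios scaling it was 0.18 (adjusted p = 0.353), while the interaction remained -1.95.

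The gene lies on chromosome X, 52988137 to 53021659, plus strand (mm10). Its promoter is shown because Hprt is the one called gene and Klf15 belongs to a family that binds GC-rich and CACCC elements. The window of 300 bases, from 250 before to 50 after the RefSeq start (GRCm38.p6, chrX:52987828-52988127, plus strand), reads as follows, with each GGGCGG in capitals.
Hprt: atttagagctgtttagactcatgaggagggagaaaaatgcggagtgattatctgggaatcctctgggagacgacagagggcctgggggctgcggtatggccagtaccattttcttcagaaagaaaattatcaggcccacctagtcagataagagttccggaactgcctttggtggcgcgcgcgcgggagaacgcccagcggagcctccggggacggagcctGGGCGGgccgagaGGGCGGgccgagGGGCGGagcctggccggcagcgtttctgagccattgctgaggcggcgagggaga
These 300 bases hold 3 copies of GGGCGG and 0 of CACCC, counting both strands (CCGCCC and GGGTG on the other), at 61.0% GC. Among 32851 promoters of the same length in the RefSeq table, 35.7% hold GGGCGG and 57.5% hold CACCC, and the median GC content is 52.7%. Among genes named below, the promoters of Fam102a, Smarca2 and 2010320M18Rik hold 3, 2 and 2 copies of GGGCGG. Those of Klhdc8a and Tmem86a hold 1 each, and those of Gna14 and Actr1b hold 0. Each window of Per1 holds 1, and the windows of Mapk14 hold 1 and 0. These are matches of letters and not measured binding sites. Whether Klf15 acts on Hprt was not tested, and an effect of a Cre transgene on Hprt cannot be told apart.

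Tested genes beside Hprt had interactions of smaller size than its own. Within 1 Mb of its start the table holds 13 other protein-coding genes, of which 7 passed the filter. None of the 7 was called by limma for the interaction, and 0 had an unadjusted p under 0.05. Of all genes tested 0.00734% were called and 4.66% had such a p, so these counts do not set the neighbours apart. Their interactions ran from -0.60 to 0.09. All but that of Fam122b (0.09) lay below 0, while 53.7% of all genes tested lay above it. The nearest tested neighbour, the chromatin protein gene Phf6, gave -0.16 ± 0.22 at 3.51 to 7.77 RPKM over group means. Gpc3, a cell surface proteoglycan at 52272426 to 52613950 on the minus strand, was 8.60, 10.6 and 8.58 RPKM in fl/fl and 18.2, 28.5 and 20.2 RPKM in PTKO vehicle. The toxin groups stood at 23.1, 25.9 and 24.1 RPKM in fl/fl and 37.6, 48.7 and 40.1 RPKM in PTKO. Every PTKO library exceeded the fl/fl libraries of its treatment, and both genotypes rose, so that the interaction was -0.41 ± 0.25 (interval -0.94 to 0.13), or -0.22 without PTKO DMSO number 2. The genotype difference of Gpc3 in vehicle, 1.16, was called by limma (adjusted p = 0.0399), and that after toxin, 0.76, was not (adjusted p = 0.812).

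**Figure D2:**
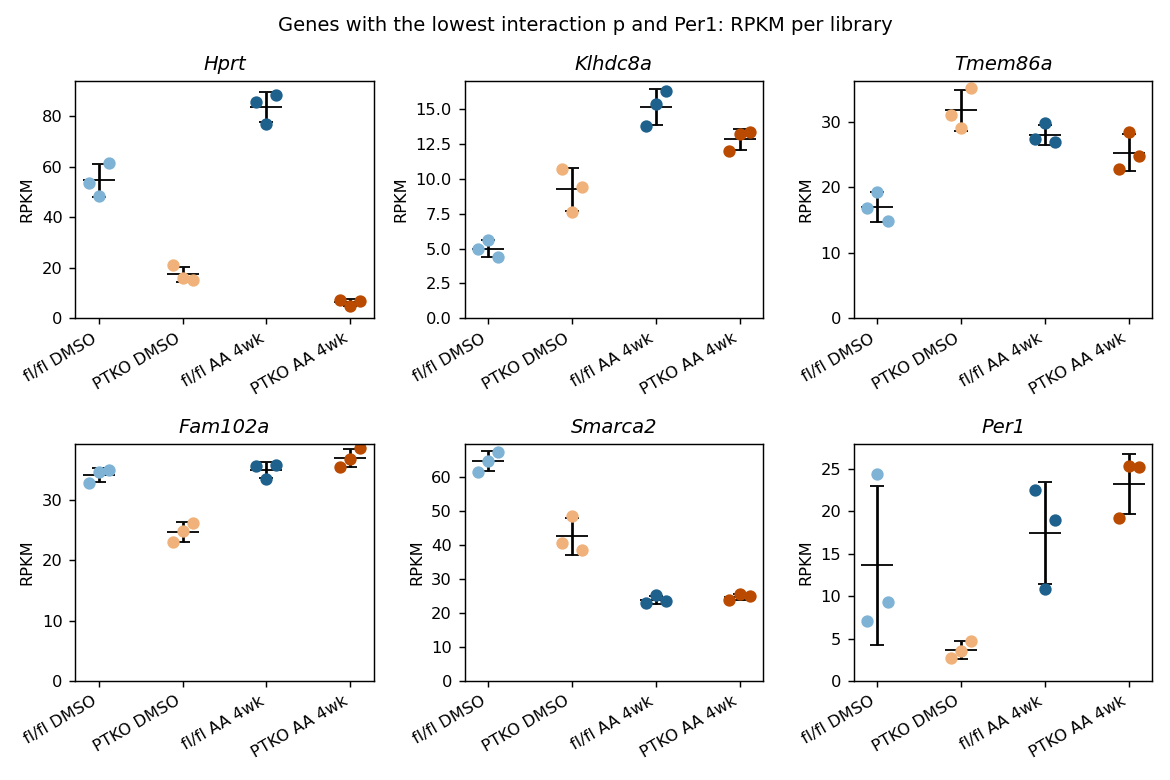
RPKM of 6 genes in each library (points) by group, with the mean (horizontal bar) and SD (vertical bar) of 3 libraries. Hprt separates further between genotypes after toxin, while Klhdc8a, Tmem86a, Fam102a and Smarca2 differ more in vehicle than after toxin.

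Named next are the genes with the 6 lowest unadjusted p values in each direction among those with a mean of 5 RPKM or more in a group. Besides Hprt none of these 12 was called for the interaction, and the others are given as values. For Fam102a, Smarca2 and Tmem86a the genotype difference in vehicle was called by limma (adjusted p = 0.0399 each), and that after toxin was not. For several the genotype difference was larger in vehicle than after toxin. Fam102a, a gene of little-known function induced by estrogen, was 32.8, 34.6 and 35.0 RPKM in fl/fl vehicle and 23.0, 24.8 and 26.2 RPKM in PTKO vehicle. With toxin it was 35.6, 33.4 and 35.7 RPKM in fl/fl and 35.5, 36.8 and 38.5 RPKM in PTKO. The vehicle groups did not overlap, and the toxin groups did. The interaction was 0.54 ± 0.10 (adjusted p = 0.366), with a genotype difference of -0.46 in vehicle and 0.08 after toxin.

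Smarca2, an ATPase of the SWI/SNF chromatin remodeling complex, was 61.5, 64.8 and 67.4 RPKM in fl/fl vehicle against 40.5, 48.6 and 38.4 RPKM in PTKO vehicle. It fell in both genotypes to a shared level, 22.9, 25.2 and 23.6 RPKM in fl/fl and 23.8, 25.5 and 24.9 RPKM in PTKO. The toxin groups overlapped. The interaction was 0.65 ± 0.13 (adjusted p = 0.535). The stress-activated kinase gene Mapk14 had the same form with smaller steps, from a genotype difference of -0.28 in vehicle to 0.09 after toxin (interaction 0.37 ± 0.09, adjusted p = 0.786). So did Gpt, the alanine aminotransferase, at 12.1, 11.5 and 12.7 RPKM against 5.5, 5.25 and 6.95 RPKM in vehicle. After toxin Gpt stood at 2.57, 2.78 and 2.43 RPKM in fl/fl and 2.02, 3.08 and 2.86 RPKM in PTKO, an interaction of 0.94 ± 0.23 (adjusted p = 0.884).

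Tmem86a, a membrane protein gene of plasmalogen breakdown, and Klhdc8a, a kelch-domain gene, were the reverse. Tmem86a was 16.9, 19.3 and 14.8 RPKM in fl/fl and 31.1, 29.0 and 35.2 RPKM in PTKO vehicle. After toxin it was 27.3, 29.8 and 26.9 RPKM in fl/fl and 22.8, 28.4 and 24.7 RPKM in PTKO. The vehicle groups did not overlap, and the toxin groups did. Its interaction was -1.01 ± 0.20 (adjusted p = 0.376), from a genotype difference of 0.86 to one of -0.15. Klhdc8a was 4.95, 5.6 and 4.38 RPKM in fl/fl and 10.7, 7.62 and 9.45 RPKM in PTKO vehicle, and 13.8, 15.4 and 16.3 against 12, 13.2 and 13.4 RPKM after toxin. Neither pair of groups overlapped, and the order turned. Its interaction was -0.99 ± 0.18 (adjusted p = 0.366). Median-of-ratios scaling called both (adjusted p = 0.0491 each).

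The others differed after toxin in part. Xdh, xanthine dehydrogenase, which ends purine breakdown, was 8.26, 8.82 and 5.49 RPKM in fl/fl and 5.55, 5.64 and 4.47 RPKM in PTKO vehicle. It rose in both genotypes, to 19.1, 17.4 and 16.0 RPKM in fl/fl and 28.3, 28.0 and 22.3 RPKM in PTKO. The vehicle groups overlapped and the toxin groups did not, and the interaction was 0.99 ± 0.26 (adjusted p = 0.934). Gna14, a G protein subunit, gave -0.73 ± 0.15, Actr1b, a subunit of the dynactin complex, -0.41 ± 0.09, and the noncoding RNA gene 2010320M18Rik -0.56 ± 0.13. For these 3 the genotype difference was positive in vehicle (0.41, 0.25 and 0.15) and negative after toxin (-0.32, -0.17 and -0.41). Their adjusted p values were 0.535, 0.729 and 0.729.

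Per1, a repressor of the circadian clock and a glucocorticoid target, was the remaining gene of that set. In vehicle it stood at 7.13, 24.4 and 9.36 RPKM in fl/fl and at 2.70, 3.50 and 4.72 RPKM in PTKO. After toxin it stood at 22.5, 10.8 and 19.0 RPKM in fl/fl and at 19.2, 25.4 and 25.2 RPKM in PTKO. All PTKO vehicle libraries were below all fl/fl ones, and the toxin groups overlapped. Per1 rose in PTKO (2.40, adjusted p = 2.77e-05), while the change in fl/fl was 0.46 ± 0.35 (adjusted p = 0.257), and the interaction was 1.94 ± 0.49 (interval 0.89 to 2.99, adjusted p = 0.934).

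Clock genes as a list lay mostly above 0. Of 19 circadian genes, 14 had an interaction above 0, as had 53.7% of all genes tested, and 0 were called. With an unadjusted p under 0.05 stood 5 higher and 1 lower, where 1.86% and 2.8% of all genes stood. The 5 were Per1, Per2 (1.39 ± 0.38), Per3 (1.02 ± 0.39) and Ciart (1.31 ± 0.51), all repressors of the clock, and Bhlhe40 (0.59 ± 0.25), a transcriptional repressor. The 1 was Npas2 (-1.03 ± 0.47), which pairs with Bmal1 to activate the clock. Bmal1 itself, listed as Arntl, gave -0.96 ± 0.57. Genes of this paragraph other than Per1 are named after their values were seen.

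In vehicle, Per2 averaged 9.16 ± 4.04 RPKM in fl/fl and 3.63 ± 1.33 RPKM in PTKO, and Arntl 1.17 ± 0.395 against 3.64 ± 1.88 RPKM (SD, n = 3 each). After toxin Per2 averaged 6.63 ± 1.18 and 8.25 ± 0.22 RPKM, and Arntl 2.89 ± 0.408 and 3.02 ± 0.202 RPKM. Per2 was lower and Arntl higher in PTKO in vehicle, and both differed less after toxin. The median genotype difference of the list was -0.35 in vehicle and 0.05 after toxin, and the median interaction was 0.42 (0.33 to 0.56 over the settings). Per library, the mean of the list against the fl/fl vehicle mean was -0.13 to 0.16 in fl/fl and -0.43 to -0.25 in PTKO vehicle, and 0 to 0.12 and 0.09 to 0.16 after toxin. The hour at which kidneys were taken is not given in the labels, and its part in these values was not tested.

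Glucocorticoid-responsive genes, a list that shares Per1 with the clock genes, leaned the same way. Of 12 genes, 10 had an interaction above 0, as had 53.7% of all genes tested, with a list median of 0.39 (0.16 to 0.60 over the settings). Besides Per1, Tsc22d3 (GILZ, an anti-inflammatory mediator) gave 1.37 ± 0.42 and Fkbp5, a cochaperone of the glucocorticoid receptor, gave 0.91 ± 0.35, both named after their values were seen. The receptor gene Nr3c1 gave -0.10 ± 0.17 and the metallothionein genes Mt1 and Mt2 -0.03 ± 0.32 and 0.16 ± 0.34. None of the 12 was called (adjusted p = 0.934 for Tsc22d3 and Fkbp5).

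Genes of mitochondrial respiration formed the largest list on 1 side. Every one of 42 tested nuclear genes of oxidative phosphorylation had an interaction below 0, from -0.56 for Cyc1, cytochrome c1 of complex III, to -0.13 for Ndufa1 of complex I. Their median was -0.40, where all genes tested had a median of 0.02, with 53.7% above 0. None was called, and 12 had an unadjusted p under 0.05, all lower, where 2.8% of all genes tested stood. Members of such a list vary together, so these counts are not independent evidence. In fl/fl 25 of the 42 fell, with a median response of -0.36, and in PTKO 42 of 42 fell, with a median of -0.72. Of all genes tested 14.3% fell in fl/fl and 17.3% in PTKO. The 95% interval of the interaction lay within -1 to 1 for 40 of the 42.

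Atp5f1, a subunit of the ATP synthase stalk, had the lowest p of the list. It was 195, 181 and 225 RPKM in fl/fl and 227, 211 and 229 RPKM in PTKO vehicle. The toxin groups stood at 140, 151 and 160 RPKM in fl/fl and 119, 107 and 120 RPKM in PTKO. The vehicle groups overlapped and the toxin groups did not. Atp5f1 fell by 0.41 in fl/fl (adjusted p = 0.00744) and by 0.94 in PTKO (adjusted p = 8.49e-06), an interaction of -0.53 ± 0.17 (interval -0.89 to -0.17, adjusted p = 0.934). The catalytic subunit gene Atp5b averaged 1830 and 1980 RPKM in vehicle and 1260 and 986 RPKM after toxin, in fl/fl and PTKO. Uqcrfs1, the Rieske protein of complex III, went from 250 and 267 to 159 and 119 RPKM, and Cox4i1 of complex IV from 752 and 854 to 708 and 569 RPKM. Means of 3 libraries of these genes were higher in PTKO in vehicle and lower in PTKO after toxin.

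Per library, the mean over the 42 genes, set against the fl/fl vehicle mean, was -0.06 to 0.05 in fl/fl and 0.04 to 0.08 in PTKO vehicle. With toxin it was -0.48, -0.36 and -0.26 in fl/fl and -0.80, -0.74 and -0.55 in PTKO, with no overlap between genotypes. The median interaction ran from -0.50 to -0.35 over 31 settings and stayed below 0 in each of them. How many genes fell depended on scaling. With median-of-ratios scaling 41 of 42 fell in fl/fl and 42 in PTKO, and with quantile normalization 9 and 30. Proximal tubule markers also had a lower median response in PTKO, -2.51 against -2.05 in fl/fl. Their summed level after toxin was 4940 to 6690 RPKM in fl/fl and 2570 to 5040 RPKM in PTKO, ranges that overlapped. In bulk tissue fewer cells of a type and less RNA per cell cannot be told apart, and the part of tubule markers in the result was not tested.

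**Figure D3:**
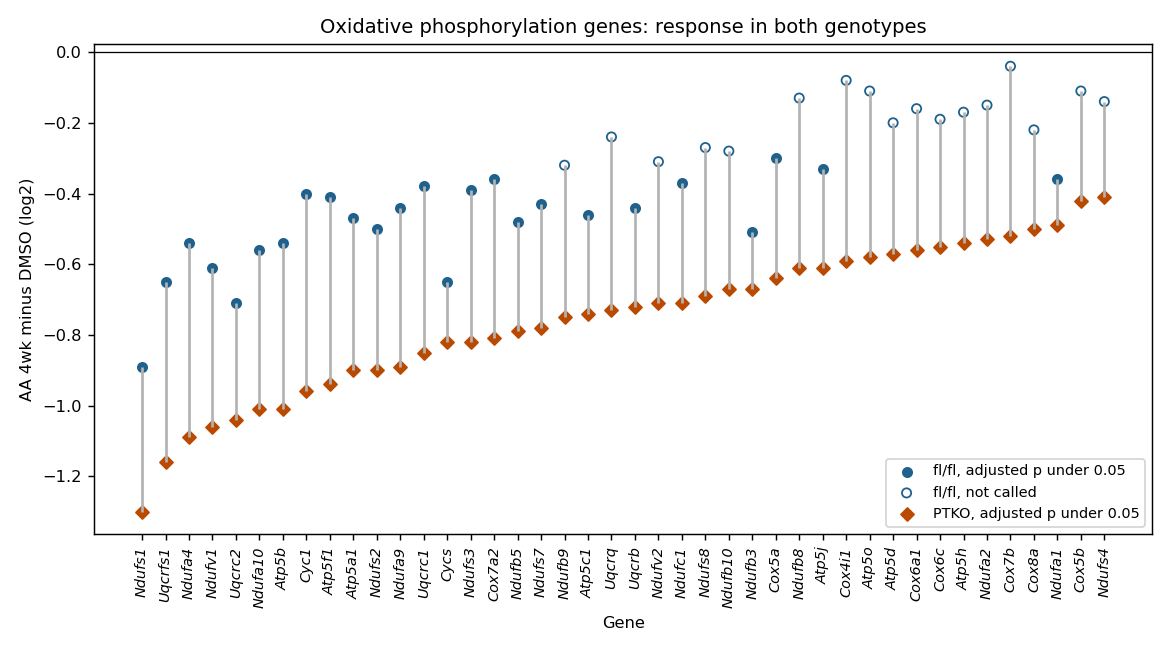
Log2 response to toxin and remodeling of the 42 oxidative phosphorylation genes, ordered by the PTKO response (diamonds), with the fl/fl response of the same gene (circles, open where not called). For each gene the PTKO value lies below the fl/fl value, and the interaction was called for none of them.

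Other pathways of fuel use leaned the same way with smaller values or more exceptions. In the TCA cycle 12 of 17 genes fell in fl/fl and 17 of 17 in PTKO, where 14.3% and 17.3% of all genes tested fell. With median-of-ratios scaling 17 and 17 fell, and with quantile normalization 9 and 14. All 17 interactions were below 0, while 53.7% of all genes tested lay above it. The list median was -0.34 (-0.41 to -0.29 over the settings, both scalings included). Mdh2, mitochondrial malate dehydrogenase, was 441, 390 and 405 RPKM in fl/fl and 441, 465 and 425 RPKM in PTKO vehicle. After toxin it was 343, 371 and 396 RPKM in fl/fl and 291, 277 and 337 RPKM in PTKO. The vehicle groups overlapped and the toxin groups did not, for an interaction of -0.40 ± 0.18 (adjusted p = 0.934).

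Fatty acid oxidation is the pathway named in the series title. In it 20 of 26 genes fell in fl/fl and 22 of 26 in PTKO, where 14.3% and 17.3% of all genes tested fell. Of the 26 interactions 5 were above 0, as were 53.7% of those of all genes tested. The list median was -0.26 and no member had an unadjusted p under 0.05. Cpt1a, the carnitine transferase that admits fatty acids to mitochondria, gave 0.04 ± 0.32 (interval -0.65 to 0.73). Acadm, the medium-chain dehydrogenase, gave -0.42 ± 0.26 (interval -0.98 to 0.14), and Hadhb, of the trifunctional protein, -0.32 ± 0.18. Ppara, the receptor that activates these genes, gave 0.49 ± 0.41 and its coactivator Ppargc1a -0.38 ± 0.25. Among 18 PPAR-alpha genes the median was -0.08, with a sign that changed in 4 settings. Angptl4, an inhibitor of lipoprotein lipase, stood at the top of that list. It was 39.1, 47.8 and 45.7 RPKM in fl/fl and 11.5, 21.8 and 29.9 RPKM in PTKO vehicle, then 43.9, 30.5 and 22.8 against 54.7, 37.6 and 50.2 RPKM after toxin. The vehicle groups were apart and the toxin groups overlapped, with an interaction of 1.70 ± 0.58 (interval 0.46 to 2.94, adjusted p = 0.934).

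Peroxisomal lipid metabolism had 2 of 19 interactions above 0, where 53.7% of all genes tested lay, and a median of -0.41 (-0.45 to -0.27). Its member with the lowest p, Crot, which makes medium-chain acylcarnitines, was 151, 168 and 195 RPKM in fl/fl and 246, 224 and 244 RPKM in PTKO vehicle. The toxin groups stood at 49.2, 50.3 and 52.2 RPKM in fl/fl and 56.9, 41.2 and 43.5 RPKM in PTKO. The vehicle groups did not overlap and the toxin groups did (interaction -0.59 ± 0.21, adjusted p = 0.934). Branched-chain amino acid breakdown had 2 of 24 above 0 and a median of -0.31 (-0.36 to -0.25). There Bckdk, the kinase that shuts the branched-chain dehydrogenase, gave -0.43 ± 0.16. Gluconeogenesis had 1 of 10 above 0 (median -0.29, Got1 at -0.30 ± 0.13) and glycolysis 6 of 18 (median -0.18, the glucose carrier gene Slc2a1 at -0.37 ± 0.17). None of the members of these 4 lists was called.

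**Figure D4:**
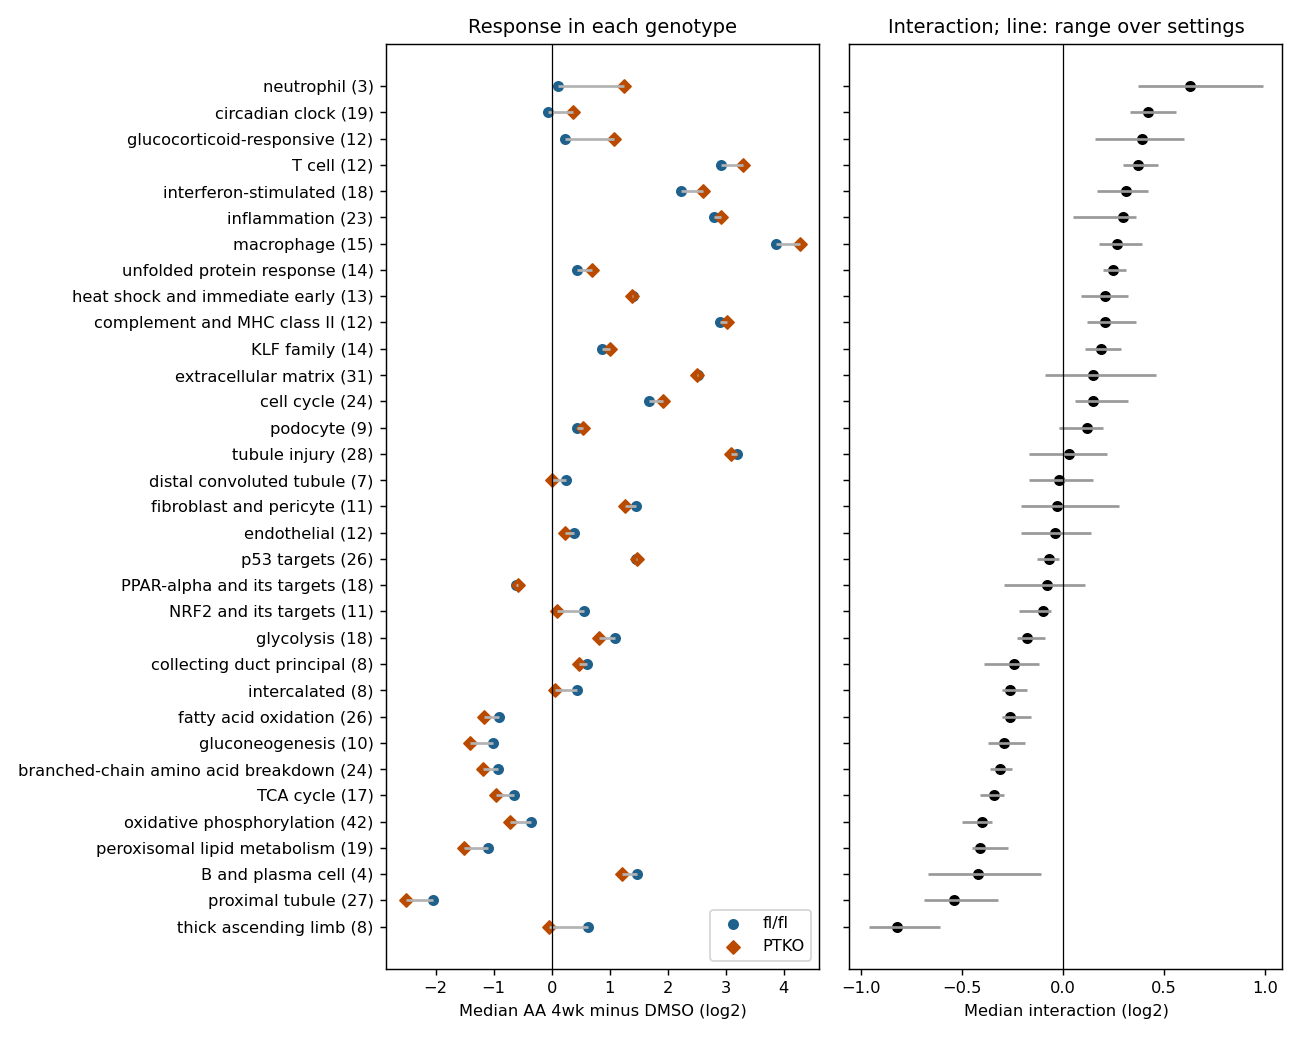
Median log2 response of each gene list in fl/fl (circles) and PTKO (diamonds) on the left, and median interaction on the right with its range over 31 settings (grey lines), with the number of tested genes in brackets. Lists of respiration and tubule transport lie below 0 and clock, glucocorticoid, macrophage and T cell lists above 0, and no list holds a called gene.

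Markers of several nephron segments leaned below 0. Of 27 proximal tubule markers, 21 fell in fl/fl and 26 in PTKO, where 14.3% and 17.3% of all genes tested fell. The markers had median responses of -2.05 and -2.51. Their median interaction was -0.54 (-0.69 to -0.32 over the settings), and 4 of 27 lay above 0, where 53.7% of all genes tested lay. Of the markers 4 had an unadjusted p under 0.05, all lower, where 2.8% of all genes tested stood. Gatm, which makes the creatine precursor, was 596, 405 and 535 RPKM in fl/fl and 532, 620 and 489 RPKM in PTKO vehicle. With toxin it was 334, 403 and 306 RPKM in fl/fl and 215, 136 and 214 RPKM in PTKO. The vehicle groups overlapped and the toxin groups did not (interaction -1.01 ± 0.39, adjusted p = 0.934). The others with such a p, named after their values were seen, were the urate transporter gene Slc22a12 (-1.48 ± 0.62), the inositol oxygenase gene Miox (-1.48 ± 0.63) and Acsm2 (-0.85 ± 0.38).

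PTKO AA 4wk number 2 was the lowest library for several of these markers. Slc22a6, the organic anion transporter through which the toxin enters, was 381, 265 and 443 RPKM in fl/fl and 365, 373 and 332 RPKM in PTKO vehicle. After toxin it was 40.5, 22.6 and 37.0 RPKM in fl/fl and 22.7, 3.96 and 15.0 RPKM in PTKO, groups that overlapped at their edge (interaction -1.44 ± 0.80, interval -3.16 to 0.28). Without PTKO AA 4wk number 2 its interaction was -0.78. Slc34a1, the phosphate transporter, stood at 988, 1030 and 1190 against 789, 434 and 693 RPKM after toxin, with an interaction of -0.76 ± 0.48, or -0.50 without that library. Megalin, Lrp2, lay on the other side at 0.55 ± 0.43 (interval -0.38 to 1.47), or 0.28 without PTKO AA 4wk number 1. The mean of the 27 markers, set against fl/fl vehicle, was -2.37 to -2.09 in the fl/fl toxin libraries and -3.39, -2.78 and -2.42 in the PTKO ones.

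Thick ascending limb markers had the lowest median interaction among lists of 3 or more tested genes, -0.82 (-0.96 to -0.61 over the settings). While 53.7% of all genes tested lay above 0, 8 of 8 of these markers lay below it. Their summed level was 1760 to 3170 RPKM in vehicle and 3580 to 4520 RPKM after toxin in fl/fl, and 2550 to 2880 RPKM and then 2050 to 3140 RPKM in PTKO. None of the 8 was called and none had an unadjusted p under 0.05. The lowest p was that of the claudin gene Cldn10 (-0.70 ± 0.34, interval -1.42 to 0.02). Umod, uromodulin, averaged 1570 and 1840 RPKM in vehicle and 3410 and 2180 RPKM after toxin (-0.95 ± 0.61). Slc12a1, the salt cotransporter, gave -0.95 ± 0.70. The segment lies beyond the one named in the PTKO label. Over the scalings the fl/fl median of this list stayed above 0 (0.20 and 0.69), while the PTKO median was -0.05 here and -0.51 and 0.11 with the scalings.

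Single markers of later segments had low values as well. Pvalb, parvalbumin of the distal convoluted tubule, was 25.5, 22.1 and 29.0 RPKM in fl/fl and 26.4, 27.7 and 31.0 RPKM in PTKO vehicle. The toxin groups stood at 2.43, 7.89 and 3.93 RPKM in fl/fl and 0.315, 1.09 and 1.21 RPKM in PTKO. The toxin groups did not overlap (interaction -1.69 ± 0.68, adjusted p = 0.934), although the median of its list of 7 was -0.02. Aqp4, a water channel of principal cells, gave -1.70 ± 0.57 and Slc4a1, the anion exchanger of intercalated cells, -1.23 ± 0.39. Their list medians were -0.24 and -0.26. For Aqp4 the larger genotype difference was in vehicle, at 1.17, against -0.53 after toxin, where the groups overlapped. For Slc4a1 it was 0.15 in vehicle and -1.08 after toxin. Podocyte and endothelial lists had medians of 0.12 and -0.04, with the endothelial cadherin gene Cdh5 at -0.15 ± 0.22.

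Macrophage and T cell markers stood higher in PTKO after toxin, and B and plasma cell markers lower. All 15 macrophage markers rose in both genotypes, where 51.9% and 55% of all genes tested rose in fl/fl and PTKO. The median rise of these markers was 3.87 in fl/fl and 4.27 in PTKO. Of their interactions 13 lay above 0, as did 53.7% of those of all genes tested. The median of the 15 was 0.27 (0.18 to 0.39 over the settings). Mrc1, the mannose receptor, was 27.5, 23.2 and 23.6 RPKM in fl/fl and 41.1, 46.5 and 28.0 RPKM in PTKO after toxin, from at most 1.17 RPKM in vehicle. The toxin groups did not overlap (interaction 0.70 ± 0.48, interval -0.32 to 1.72). Lyz2, lysozyme, gave -0.27 ± 1.02, with vehicle libraries from 4.42 to 24.8 RPKM. Summed macrophage markers were 2770 to 4210 RPKM in fl/fl and 4460 to 6110 RPKM in PTKO after toxin.

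All 12 T cell markers rose in both genotypes, where 51.9% and 55% of all genes tested rose in fl/fl and PTKO. All 12 had interactions above 0, as had 53.7% of all genes tested (median of the markers 0.37, 0.30 to 0.47). Summed, they reached 94.7 to 110 RPKM in fl/fl and 139 to 152 RPKM in PTKO after toxin, without overlap. Gzmb, a granule protease of killer cells, was 2.47, 2.08 and 2.39 RPKM in fl/fl and 3.74, 4.13 and 5.92 RPKM in PTKO (interaction 0.68 ± 0.47). None of the macrophage or T cell markers was called or had an unadjusted p under 0.05. B and plasma cell markers summed to 75.4 to 150 RPKM in fl/fl and 31.8 to 42.7 RPKM in PTKO after toxin. In vehicle they summed to 15.5 to 20.1 and 7.49 to 12.2 RPKM. The 4 tested had a median interaction of -0.42 (-0.67 to -0.11 over the settings), and 1 lay above 0, Cd79b at 0.21. Mzb1, a chaperone of antibody secretion, had the lowest value, -1.33 ± 0.58 (adjusted p = 0.934). Its level after toxin was low, at 2.81, 2.68 and 5.48 RPKM in fl/fl and 1.38, 0.168 and 0.704 RPKM in PTKO. Lists of inflammation, interferon-stimulated genes and complement and MHC class II had medians above 0 too, at 0.30, 0.31 and 0.21. Their lowest medians over the settings were 0.05 (without fl/fl AA 4wk number 2), 0.17 (without fl/fl DMSO number 2) and 0.12 (without fl/fl AA 4wk number 2). Their genes with the lowest p were Il18 (0.37 ± 0.25), Ifit1 (0.63 ± 0.42) and C2 (0.78 ± 0.22, adjusted p = 0.934). The chemokine gene Ccl2 gave -0.53 ± 1.01 and complement C3 -0.42 ± 0.74, or 0.13 and 0.06 without PTKO DMSO number 3. After toxin C3 was 247, 228 and 170 RPKM in fl/fl and 317, 572 and 295 RPKM in PTKO. In vehicle it was 1.68, 3.29 and 1.41 RPKM in fl/fl and 3.64, 4.74 and 12.7 RPKM in PTKO. Neither pair of C3 groups overlapped.

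Injury, p53 and matrix genes gave median interactions near 0, which does not mean equal levels after toxin. Of 28 tubule injury genes, 27 rose in fl/fl and 27 in PTKO, where 51.9% and 55% of all genes tested rose. The median interaction of the list was 0.03, with a sign that changed in 10 settings. Havcr1, the kidney injury molecule, was 331, 266 and 391 RPKM in fl/fl and 327, 270 and 327 RPKM in PTKO after toxin. In vehicle it was 0.713, 0.821 and 0.391 RPKM in fl/fl and 0.978, 0.620 and 24.9 RPKM in PTKO. The toxin groups overlapped, and PTKO DMSO number 3 stood apart. The interaction was -1.50 ± 1.22, or -0.22 without that library. Lcn2, a lipocalin of injured tubules, gave 0.10 ± 0.81, and the integrin gene Itgb6 -0.55 ± 0.25. After toxin Lcn2 was 420, 202 and 285 RPKM in fl/fl and 457, 676 and 542 RPKM in PTKO, without overlap. In vehicle it was 1.36, 2.42 and 0.74 RPKM in fl/fl and 1.71, 1.81 and 9.34 RPKM in PTKO, groups that overlapped. Per library, the mean of the injury list against fl/fl vehicle was 3.12 to 3.42 in fl/fl and 3.59 to 3.72 in PTKO after toxin, and -0.21 to 0.20 and 0.12 to 0.76 in vehicle.

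Of 26 p53 targets, 22 rose in each genotype, where 51.9% of all genes tested rose in fl/fl and 55% in PTKO. The median interaction of the targets was -0.07 (-0.13 to -0.02). Cdkn1a, the cell cycle inhibitor induced by p53, was 230, 210 and 274 RPKM in fl/fl and 207, 222 and 255 RPKM in PTKO after toxin, from 2.38 to 4.05 RPKM in vehicle. Those toxin groups overlapped, and its interaction of -0.15 ± 0.25 had an interval of -0.69 to 0.38. The repair gene Xpc had the lowest p of the list (-0.24 ± 0.13). Of 31 matrix genes 28 rose in fl/fl and 30 in PTKO. Their median interaction was 0.15, with a sign that changed in 3 settings. Per library, the mean of the matrix list against fl/fl vehicle was 2.24 to 2.57 in fl/fl and 2.89 to 3.02 in PTKO after toxin. In vehicle it was -0.54 to 0.48 in fl/fl and 0.16 to 0.39 in PTKO. Col1a1 after toxin was 62.5, 57.9 and 44.4 RPKM in fl/fl and 98.4, 101 and 92.8 RPKM in PTKO. Those toxin groups did not overlap, and its vehicle groups did. Col1a1 gave -0.02 ± 1.22 (interval -2.62 to 2.57), Fn1 0.36 ± 0.75 and Ctgf, connective tissue growth factor, 0.92 ± 0.50. Fn1 was 0.02 and Ctgf 0.44 without fl/fl DMSO number 2, and 0.80 and 1.30 without number 3. These wide intervals do not show that the genotypes responded alike. Of 24 cell cycle genes 22 rose in fl/fl and 24 in PTKO (median interaction 0.15, Ccnd1 at -0.28 ± 0.20).

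**Figure D5:**
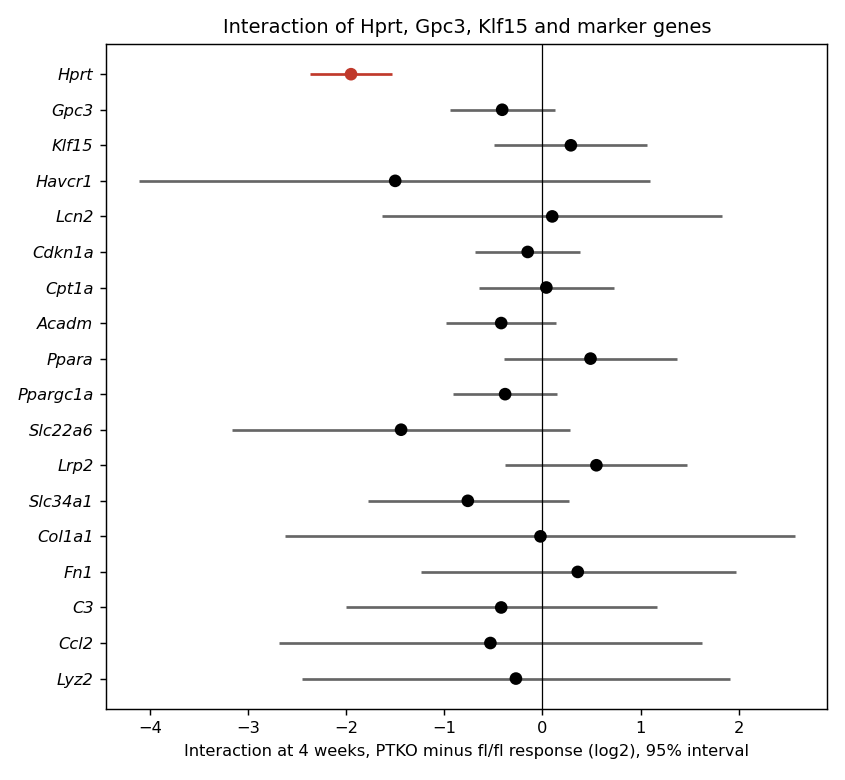
Interaction (point) with its 95% interval (line) for Hprt, Gpc3, Klf15 and 15 marker genes of injury, metabolism, tubule transport, matrix and inflammation. The interval of Hprt, -2.37 to -1.53, lies below 0, and those of the other 17 genes include 0.

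Among regulators, 12 of 14 KLF family genes had an interaction above 0 (median 0.19), as had 53.7% of all genes tested. Klf2 gave 0.69 ± 0.24 (0.18 to 1.21, adjusted p = 0.934). Of 14 unfolded protein response genes 13 lay above 0 (median 0.25, Xbp1 at 0.46 ± 0.24). NRF2 and its targets had a median of -0.10, with glutathione reductase, Gsr, at -0.47 ± 0.18. Heat shock and immediate early genes had a median of 0.21, with the cochaperone gene Dnajb1 at 0.36 ± 0.15, and fibroblast and pericyte markers one of -0.03, with Cspg4 at 0.44 ± 0.28. Of 8 neutrophil markers 3 were tested (median 0.63, S100a9 at 1.13 ± 0.86). The single tested markers of adipocytes, adrenal cortex and erythroid cells were Cfd (1.14 ± 1.34), Star (0.23 ± 0.20) and Alas2 (0.40 ± 0.60). Cfd rested on PTKO AA 4wk number 2, at 38.9 RPKM against 0.0 and 0.393 RPKM in the other 2 libraries of its group. Without that library Alas2 was 0 and S100a9 0.73.

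The interaction after 2 weeks of toxin without remodeling uses the same vehicle libraries, so both values for a gene share them and are set side by side. At 2 weeks limma called 2 genes, 0.0147% of those tested (5.36% had an unadjusted p under 0.05). They were Hprt (-1.90 ± 0.20, adjusted p = 0.00108) and Tmem86a (-1.42 ± 0.20, adjusted p = 0.0181). Hprt was 88.1, 106 and 91.8 RPKM in fl/fl AA 2wk and 7.02, 8.15 and 7.29 RPKM in PTKO AA 2wk, near its levels after remodeling. Tmem86a was 17.4, 16.0 and 21.7 RPKM against 12.8, 14.0 and 9.85 RPKM, groups that did not overlap at 2 weeks. The 2-week call of Tmem86a was lost with a replicate block (-1.42, adjusted p = 0.0552) and without any 1 of 5 libraries (fl/fl DMSO number 1 or 3, PTKO DMSO number 1 or 3, fl/fl AA 2wk number 1), with adjusted p from 0.0541 to 0.0838. For Klhdc8a the values were -0.95 and -0.99, for Smarca2 0.60 and 0.65, for Fam102a 0.37 and 0.54, and for Per1 1.13 and 1.94, at 2 weeks and after remodeling. List medians, in the same order, were -0.16 and -0.40 for oxidative phosphorylation and -0.15 and -0.54 for the proximal tubule. They were -0.82 and -0.82 for the thick ascending limb, 0.53 and 0.42 for the clock, and 0.25 and 0.27 for macrophages. Medians of other lists changed sign. They were -0.19 and 0.37 for T cells, 0.15 and -0.42 for B and plasma cells, and 0.41 and -0.24 for principal cells. Those of interferon-stimulated, matrix and cell cycle genes were -0.32 and 0.31, -0.65 and 0.15, and -0.27 and 0.15.

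The difference of the 2 interactions, in which the vehicle libraries cancel, tests whether the genotypes changed unequally between 2 weeks and the end of remodeling. By limma 0 of 13624 genes were called, and 442 (3.24%) had an unadjusted p under 0.05. The latter count rested on single 2-week libraries, being 1444 without fl/fl AA 2wk number 3, 1064 and 919 without PTKO AA 2wk number 1 and number 2, 247 without fl/fl AA 2wk number 1, and 266 without PTKO AA 2wk number 3. It was also 270 without PTKO AA 4wk number 2 and 286 without fl/fl AA 4wk number 3. Hprt differed by -0.05 ± 0.20 and Atp5f1 by -0.27 ± 0.17. Gatm differed by -0.64 ± 0.39 and Tmem86a by 0.41 ± 0.20. Without fl/fl AA 2wk number 2, 1 gene was called for this difference.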

How the data were processed

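RNA-seq of mouse kidney cortex was deposited by the authors as RPKM values, per the file headers, for 24062 genes. The submitters' processing notes name bcl2fastq 2.19, kallisto and mm10. How reads became RPKM, and on which annotation, is not given in the sources used here. RPKM is relative to library totals, so a fall of abundant transcripts raises the rest. For 17579 of 17579 genes above 0 in at least 6 libraries (100.0%), whole reads were recovered within 0.02 reads, giving the depths above. Of the gene names, 27 read as dates.

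Genes reaching 1 RPKM in 3 or more of the 18 libraries were tested on log2(RPKM + 1), which understates changes of low genes. The limma model (R 4.3.3 with limma 3.58.1 and statmod 1.5.0) had 6 group means over 18 libraries, with trend and robust moderation. Tests were two-sided, with Benjamini-Hochberg adjustment over 13624 genes and calls at 0.05. Errors beside log2 values are SE, and beside RPKM are SD. An exact test of 3 against 3 libraries cannot reach that threshold. The fit was tested on simulated data.

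The gene lists, 36 in all, and the named genes were chosen with earlier results of these data known. Named genes are those called, the 6 lowest unadjusted p in each direction at 5 RPKM or more, 18 chosen genes of injury, metabolism and other roles, and the member of each list with the lowest p. One gene that this rule names is not reported here. Alternatives covered the pseudocount, filters, libraries fitted, scalings, weights, a replicate block, moderation, voom on recovered reads, and each of 18 libraries left out. Positions are from GENCODE M21 on mm10 and promoters from RefSeq on GRCm38.p6.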

Additional observations from a re-analysis of the deposited data

Results flagged for a closer look

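A difference between the genotypes in their toxin response, by a test of the difference itself, was found for Hprt at 4 weeks, with an interaction of -1.95 (limma, adjusted p = 0.000756). The same test found it at 2 weeks for Hprt (-1.9, adjusted p = 0.00108) and for Tmem86a (-1.42, adjusted p = 0.0181). The 2-week and 4-week values share their 6 vehicle libraries. In all 6 PTKO toxin libraries Hprt stood between 4.84 and 8.15 RPKM, below each PTKO vehicle library. In all 6 fl/fl toxin libraries it stood between 76.9 and 106 RPKM, above each fl/fl vehicle library. With median-of-ratios scaling the rise of Hprt in fl/fl at 4 weeks was 0.18 (limma, adjusted p = 0.353). The call of Tmem86a was lost with a replicate block (adjusted p = 0.0552) and without any 1 of 5 libraries (adjusted p from 0.0541 to 0.0838).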

How the results depend on the processing

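Hprt kept its call and direction in all 31 settings. The number of genes called for the interaction at 4 weeks was 3 with median-of-ratios scaling (Klhdc8a, Tmem86a and Hprt) and 161 with sample quality weights estimated gene by gene (54 higher, 107 lower), and 1 in the other 29, voom and each left-out library included. Quality weights estimated by REML, chosen after seeing the data, did not converge, gave fl/fl DMSO number 1 a weight of 0 and fl/fl AA 2wk number 1 one of 16, and called 1 gene. At 2 weeks the count was 2, and 158 with quality weights, 4 with REML weights, and 1 to 8 with 1 library left out, 8 being without fl/fl AA 2wk number 2. The 2-week count was 1 without fl/fl DMSO number 1 or 3, PTKO DMSO number 1 or 3, or fl/fl AA 2wk number 1. The difference between times had 140 calls with REML weights and 1 without fl/fl AA 2wk number 2, with 0 to 1 over the left-out libraries. The causes were not tested. Cfd, at 1.14, ranged from -0.55 (without PTKO AA 4wk number 2) to 2.11 (without number 1) over the left-out libraries. With voom Pvalb was -2.66 and Mzb1 -2.22, neither called, and with gene-by-gene weights Per1 was 1.35. Of 63 named genes, 16 besides Hprt passed with gene-by-gene weights, where 161 of 13624 genes tested passed. Many named genes were picked by a low interaction p in these data, so that count is not separate evidence. The total counts of both toxin responses stayed within 1.5 times in every setting, but their split did not. Higher and lower calls went from 7074 and 1954 to 4083 and 4203 (median-of-ratios) or 3583 and 4600 (quantile) in fl/fl, and from 7488 and 2351 to 4482 and 4616 or 3985 and 4967 in PTKO. Whether replicate numbers pair the 12 libraries was not settled, since differently numbered libraries were not compared. Of 18 correlations of deviations between same-numbered libraries, 9 were over 0.1, and they ranged from -0.11 to 0.34. Between fl/fl and PTKO AA 2wk they were 0.44, 0.43 and 0.66. A replicate block in the fit of 18 libraries or of 12 called 1 gene at 4 weeks, and with 18 libraries 1 gene at 2 weeks. With 3 libraries a group, a difference under about 0.44 (median half-width of the 95% interval, log2) was not resolved for the median gene. That half-width holds for 1 gene without adjustment, and a call after adjustment over 13624 genes needed more. Tmem86a at 4 weeks, at -1.01 ± 0.20 with an SE near the median of 0.21, was not called (limma, adjusted p = 0.376).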

Other observations

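Some of the largest interaction values belonged to genes outside the lists and were not called. They were chosen after their values were seen. Sprr2f, a small proline-rich protein of barrier epithelia, averaged 2.14 ± 0.676 RPKM in fl/fl and 20.6 ± 16.3 RPKM in PTKO after toxin (SD, n = 3 each), from 0.0607 and 0.0749 RPKM in vehicle. Its interaction was 2.54 ± 0.97 (limma, adjusted p = 0.934). Arg1, the arginase of alternatively activated macrophages, averaged 0.547 ± 0.353 and 5.08 ± 4.60 RPKM after toxin, with an interaction of 1.70 ± 0.56 (adjusted p = 0.934). In both genes the SD of the PTKO toxin group was close to its mean.

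On the other side, Clec2h, a lectin-like receptor gene, averaged 39.6 ± 6.37 and 40.9 ± 2.66 RPKM in fl/fl and PTKO vehicle, and 26.2 ± 4.74 and 8.63 ± 3.14 RPKM after toxin. Its interaction was -1.59 ± 0.54 (adjusted p = 0.934). Ces1g, a carboxylesterase of lipid metabolism, averaged 29.4 ± 18.7 and 79.5 ± 17.1 RPKM in vehicle and 1.24 ± 0.629 and 0.948 ± 0.288 RPKM after toxin (interaction -1.72 ± 0.63, adjusted p = 0.934). Of 103 genes with an interaction of at least 1 in size, 48 had an unadjusted p under 0.05, where 4.66% of all genes tested had. The 103 were chosen by the size of the value that this p tests, so a larger share follows from the choice.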
